A study of Homo sapiens with 4 samples.

Results

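The unfolded protein response (UPR) genes of the endoplasmic reticulum (ER) were examined in NK-92, an IL-2 (interleukin 2) dependent line of human natural killer (NK) cells. The set held 36 genes for ER stress sensors, chaperones, disulfide isomerases, ER-associated degradation and protein translocation. The rule gives them by name and uses no measured value. By symbol all 36 were found among the deposited levels per transcript length (FPKM). Their Ensembl IDs were all among the 61860 genes of the count table. All 36 passed the filter on low counts, as did 17492 genes in all. The lines ΔOGT-ISS and WT were compared by RNA sequencing after depletion of ribosomal RNA. In ΔOGT-ISS, CRISPR-Cas9 had removed the intronic splicing silencer (ISS) of OGT, the gene for the enzyme that adds O-GlcNAc to intracellular proteins, and WT was the unedited line. RNA was taken from each line 24 h after IL-2 in 1 library and 48 h after IL-2 in another, 4 libraries in all. The culture medium held IL-2 for both lines. The labels assign IL-2 to every library, whereas the titles mention it for the 24 h libraries alone, and the labels were followed. The sources used here do not say whether ΔOGT-ISS was 1 clone, and it stands for a single edited line.

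The ER folds secreted and membrane proteins, and a surplus of unfolded clients is read by the sensors encoded by ERN1 (IRE1), EIF2AK3 (PERK) and ATF6. IRE1 splices the XBP1 mRNA, ATF6 is cut to release a transcription factor, and PERK slows translation and favours ATF4. Together they raise chaperones, folding enzymes and the degradation machinery that returns misfolded proteins to the cytosol. Secretory lymphocytes rely on this system, since granule proteins, cytokines and receptors all pass through the ER. Spliced and unspliced XBP1 mRNA are not told apart in a count per gene.

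Total counts were 28576566 (ΔOGT-ISS) and 24809269 (WT) at 24 h, and 11305599 and 10889986 at 48 h. All 12 NK cell markers examined passed the filter and summed to 3172 and 5071 CPM (counts scaled to library size) at 24 h (ΔOGT-ISS and WT), against 2924 and 3180 CPM at 48 h. Some single markers varied more than the sum. CD7 had 11.4 and 10.2 CPM at 24 h, against 0.613 and 0.662 CPM at 48 h. CD2 had 10.8 and 42.1 CPM at 24 h, against 5.70 and 29.7 CPM at 48 h. Of the B cell and T cell markers, 2 of 5 and 2 of 6 passed. The B cell list summed to 81.5 and 53.9 CPM at 24 h, against 62.2 and 80.2 CPM at 48 h, mostly from PAX5, and the T cell list to 342 and 333 CPM, against 211 and 246 CPM, mostly from CD3E. The markers of epithelial cells and fibroblasts summed to at most 5.96 CPM. The plasma cell markers SDC1, JCHAIN, TNFRSF17, IGHG1 and IGKC had at most 20 counts in any library. The whole list of 8, which includes the member DERL3, summed to 188 and 170 CPM at 24 h, against 289 and 279 CPM at 48 h, mostly from MZB1 and PRDM1. Of 7 myeloid markers 4 passed the filter, and the list summed to 137 and 408 CPM at 24 h, against 737 and 944 CPM at 48 h, while CD14 and LYZ had at most 5 counts. S100A9 made up most of that sum in the other 3 libraries (290 CPM in WT at 24 h, and 584 and 779 CPM at 48 h), and ITGAX, at 94.0 CPM beside 38.9 CPM of S100A9, in ΔOGT-ISS at 24 h. RNA composition moved with the IL-2 time as well. The signal recognition particle RNA RN7SL1 was at 27168 and 44261 CPM at 24 h, against 3906 and 4384 CPM at 48 h, and the mitochondrial ribosomal RNA MT-RNR2 at 133 and 142 CPM, against 2547 and 1444 CPM. The part of these shifts in the differences by time or line was not tested.

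The promoters of the members were searched first for the DNA elements by which ATF6 and XBP1 are known to act. The ER stress element (ERSE) was taken as CCAAT, any 9 bases and CCACG. The shorter ERSE-II was ATTGG, any single base and CCACG, the XBP1-type UPRE was TGACGTGG, and the ATF4-type element (CARE) was TGATG, any single base and AAT. Both strands were read from 250 bases before to 50 bases after the RefSeq gene start (GRCh38.p14). Of the 36 members 34 had a promoter in the table, the exceptions being DERL1 and DERL3. ERSE occurred in 5 of the 34 (14.7%), against 27 of 35116 promoters in all (0.0769%), and ERSE-II in 3 (8.82%), against 19 (0.0541%). Either was found in HSPA5, HSP90B1, HYOU1, SDF2L1, CANX, CRELD2, PDIA6 and HERPUD1, so that these 8 (23.5%) compare with 46 promoters in all (0.131%). The elements are known from UPR genes and the list names UPR genes, so these shares are no independent test of the list. UPRE was found in 1 member promoter, HYOU1 (2.94%, against 0.729% of all), where it overlaps an ERSE-II, and CARE in 0 (0.991% of all). Only a last base of T was counted for CARE. The HERPUD1 promoter holds a run on its other strand that differs in that base alone. A match is a run of letters and not a measured binding site. Runs that differ from a motif by 1 base were not counted, and the HERPUD1 promoter holds such a run for ERSE. In the HSPA5 promoter 1 run has an added base in the last part of ERSE (CCAACG for CCACG). It was not counted either.

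The promoters of 4 members are shown whole, each 5′ to 3′ on the strand of its gene with matches in capitals. HSPA5 and HSP90B1 had the highest FPKM (level per transcript length) of the list, HYOU1 holds the most matches, and HERPUD1 changed most among the genes with a match. They lie at chr9:125241294-125241593 (minus strand), chr12:103930160-103930459 (plus), chr11:119057156-119057455 (minus) and chr16:56931892-56932191 (plus).
HSPA5: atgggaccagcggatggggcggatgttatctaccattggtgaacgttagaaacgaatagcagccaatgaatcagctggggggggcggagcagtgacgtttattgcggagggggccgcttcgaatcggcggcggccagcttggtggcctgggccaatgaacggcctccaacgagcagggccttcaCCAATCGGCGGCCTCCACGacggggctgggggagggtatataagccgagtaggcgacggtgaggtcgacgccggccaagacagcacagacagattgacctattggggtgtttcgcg
HSP90B1: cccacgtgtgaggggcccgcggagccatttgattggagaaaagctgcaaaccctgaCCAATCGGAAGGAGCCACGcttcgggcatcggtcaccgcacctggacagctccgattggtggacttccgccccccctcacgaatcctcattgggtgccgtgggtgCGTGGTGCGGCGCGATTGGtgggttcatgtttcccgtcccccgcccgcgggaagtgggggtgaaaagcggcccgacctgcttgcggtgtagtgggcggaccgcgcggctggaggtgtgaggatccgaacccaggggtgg
HYOU1: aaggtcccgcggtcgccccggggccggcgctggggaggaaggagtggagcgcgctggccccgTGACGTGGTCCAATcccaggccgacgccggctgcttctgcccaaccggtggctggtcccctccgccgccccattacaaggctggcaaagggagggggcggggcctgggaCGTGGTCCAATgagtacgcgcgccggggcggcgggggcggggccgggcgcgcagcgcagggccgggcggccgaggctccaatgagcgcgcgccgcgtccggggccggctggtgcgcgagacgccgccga
HERPUD1: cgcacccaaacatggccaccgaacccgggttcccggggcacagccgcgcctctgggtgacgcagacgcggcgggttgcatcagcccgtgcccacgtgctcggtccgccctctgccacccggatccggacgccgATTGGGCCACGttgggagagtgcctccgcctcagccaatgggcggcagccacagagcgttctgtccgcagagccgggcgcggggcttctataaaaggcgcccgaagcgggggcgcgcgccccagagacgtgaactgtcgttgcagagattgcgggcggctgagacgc

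The matches alone are shown for the other 4 genes, all in capitals and written on the strand of the gene, so that the fixed ends and the varying spacers can be compared. CRELD2 and SDF2L1 carry theirs in the reverse orientation. The windows searched were chr5:179698717-179699016 (plus strand, CANX), chr2:10812736-10813035 (minus, PDIA6), chr22:49918384-49918683 (plus, CRELD2) and chr22:21642052-21642351 (plus, SDF2L1).
CANX: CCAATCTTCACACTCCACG
PDIA6: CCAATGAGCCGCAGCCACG
CRELD2: CGTGGCGAACTCGGATTGG
SDF2L1: CGTGGACCAAT

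Levels per transcript length ranged widely. In FPKM (fragments per kilobase, scaled to the library's total), HSP90B1 (GRP94, the ER HSP90) had 337 and 295 at 24 h (ΔOGT-ISS and WT), against 686 and 642 at 48 h. HSPA5 (BiP, the ER HSP70 that holds the sensors inactive) had 265 and 214 FPKM, against 631 and 477 FPKM. These were the highest 2 levels of the list in each library. The lowest was that of DERL3, a derlin of secretory cells, at 0.623 and 0.391 FPKM at 24 h, against 0.114 and 0.238 FPKM at 48 h. ERN1, at 1.33 and 1.90 FPKM at 24 h and 1.74 and 2.07 FPKM at 48 h, was the next lowest in every library. The sensors ATF6 (17.5 and 15.8 FPKM at 24 h, against 18.2 and 17.5 FPKM at 48 h) and EIF2AK3 (16.7 and 14.2 FPKM, against 33.0 and 27.6 FPKM) stood well above it.

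**Figure D1:**
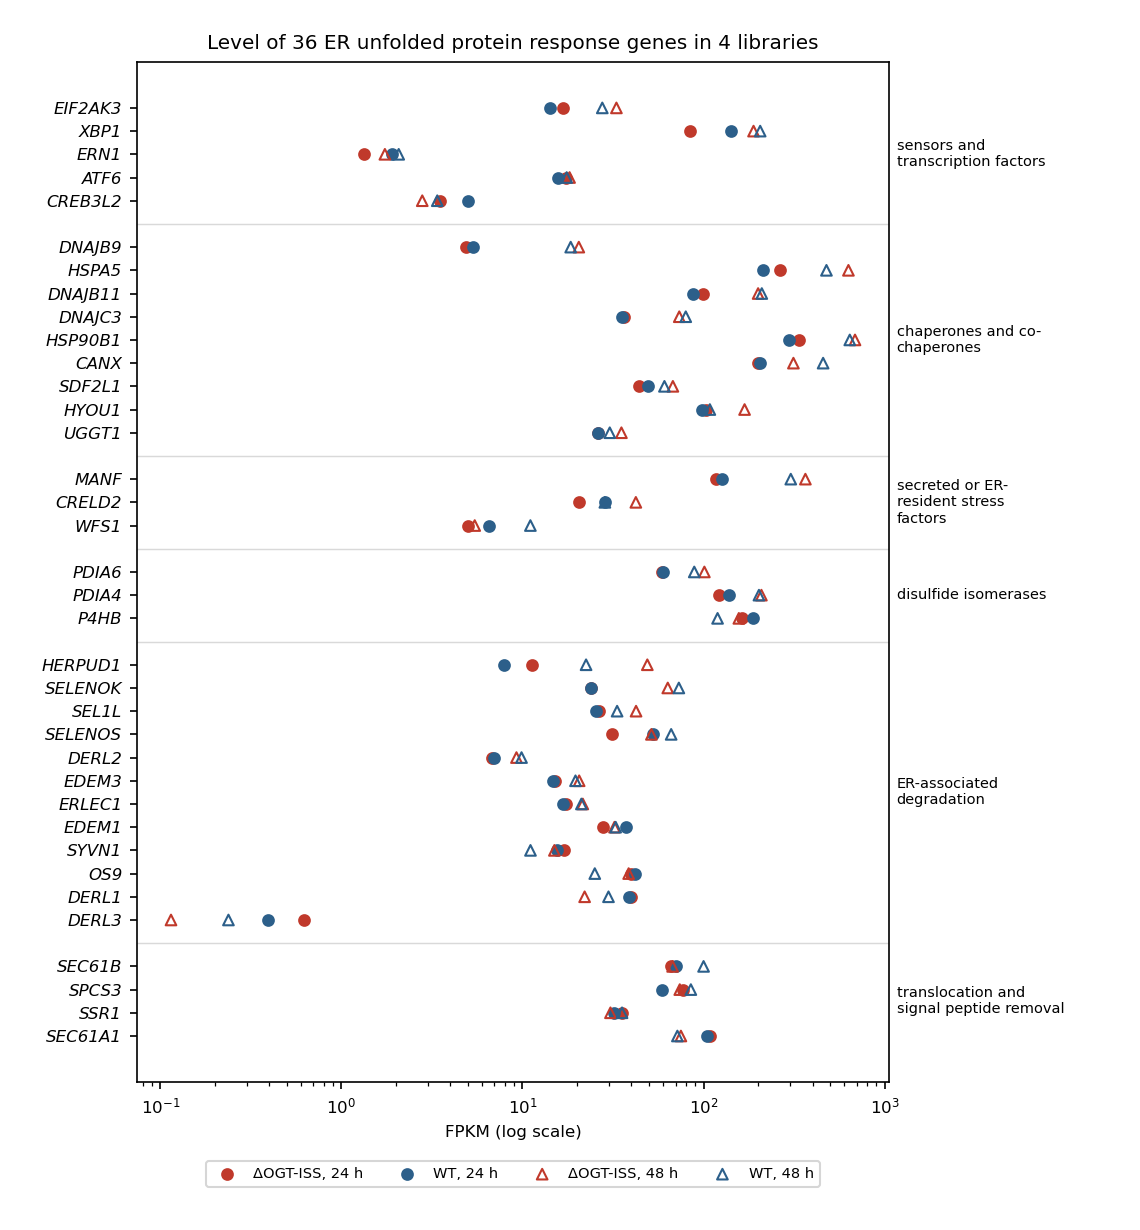
FPKM (log axis) of each of the 36 genes in the 4 libraries, grouped by role (filled circles 24 h, open triangles 48 h, ΔOGT-ISS red, WT blue). HSP90B1 reaches 686 FPKM and DERL3 stays below 1 FPKM, and for most chaperones the circles lie left of the triangles.

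The first comparison asked how the members differed with the time since IL-2. Here and below, a gene called lower at 24 h than at 48 h is said to fall, and one called higher at 24 h to rise. A gene that fell thus had its higher level at the later time after IL-2. Where times are said not to overlap, 2 libraries are set against 2, which describes the levels and is no test. The share of all genes without overlap is not given here. The time difference had the same sign in both lines for 76.4% of all tested genes. At 24 h relative to 48 h 14 of the 36 fell and 2 rose, and 6 of the 14 were chaperones or co-chaperones. Over all genes tested, 10.9% were called lower and 15.0% higher, and of the 8658 with a mean of at least 10 CPM 1419 were lower and 2027 higher. The members' median log2 difference was -0.47, with 28 of 36 below 0, against 0.07 over all tested genes and 0.02 over those 8658. Members took 0.761% and 0.743% of all counts at 24 h (ΔOGT-ISS and WT), against 1.24% and 1.19% at 48 h. These p-values come from edgeR's quasi-likelihood test with Benjamini-Hochberg adjustment over 17492 genes, in a model with line and time. Both 24 h libraries were also deeper than both 48 h libraries. With every library thinned to the shallowest depth 17 members passed, as did 4672 of all 15143 genes tested.

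Among the sensors and transcription factors, EIF2AK3 and XBP1 fell. EIF2AK3, which encodes PERK, had 74.6 and 64.9 CPM at 24 h (ΔOGT-ISS and WT), against 148 and 129 CPM at 48 h. Both 24 h values lay far below both 48 h values, and the log2 difference was -0.99 (SE 0.16, edgeR adjusted p = 0.00371). XBP1 (ENSG00000100219, chromosome 22, 28794555 to 28800597, GRCh38), the factor activated by IRE1, had 149 and 257 CPM, against 335 and 379 CPM. The groups did not overlap, and the ΔOGT-ISS library at 24 h was lowest by a wide margin. Over both lines XBP1 differed by -0.86 on the log2 scale (SE 0.19, edgeR adjusted p = 0.0143). With offsets for GC content and transcript length it was -0.53 and no longer passed (edgeR adjusted p = 0.114).

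ERN1 had 10.3 and 15.1 CPM at 24 h, against 13.6 and 16.8 CPM at 48 h, so that the times overlapped (log2 -0.28, SE 0.24, edgeR adjusted p = 0.441). ATF6 was nearly level, with 129 and 119 CPM at 24 h, against 135 and 135 CPM at 48 h (log2 -0.13, SE 0.15). CREB3L2, a membrane-bound factor related to ATF6, had a log2 difference of 0.42 (SE 0.19, edgeR adjusted p = 0.146). Of the 3 sensor transcripts, that for PERK passed the test, and the difference between the sensors was not tested.

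The 9 chaperones and co-chaperones all had negative log2 differences, and 6 fell. Their summed level was 4073 and 3821 CPM at 24 h (ΔOGT-ISS and WT), against 7845 and 7842 CPM at 48 h. HSPA5 (ENSG00000044574, chromosome 9, 125234853 to 125241330) had 1025 and 846 CPM, against 2451 and 1927 CPM. Both 24 h values lay far below both 48 h values, and the fold was 0.428 (log2 -1.22, SE 0.17, edgeR adjusted p = 0.00255). HSP90B1 had 924 and 827 CPM at 24 h, against 1890.3 and 1839.55 CPM at 48 h, again without overlap (log2 -1.09, SE 0.17, edgeR adjusted p = 0.00375).

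DNAJB9 (ERdj4), a BiP co-chaperone that restrains IRE1, had the lowest edgeR fold of 24 h over 48 h in the list. It had 11.6 and 13.0 CPM at 24 h, against 48.8 and 45.8 CPM at 48 h. The lines lay close together at each time, and the fold was 0.259 (log2 -1.95, SE 0.20, edgeR adjusted p = 0.000871). DNAJB11 (ERdj3), a co-chaperone that binds unfolded clients, had 161 and 145 CPM, against 325 and 354 CPM. DNAJC3, also known as p58IPK and an inhibitor of PERK, had 201 and 201 CPM, against 406 and 459 CPM. Neither overlapped between the times, and both fell by more than 1 log2 unit (DNAJB11 -1.152, SE 0.16, edgeR adjusted p = 0.00260, and -0.72 with GC and length offsets; DNAJC3 -1.11, SE 0.16, edgeR adjusted p = 0.00278).

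Calnexin (CANX), the lectin chaperone of new glycoproteins, had 967 and 1012 CPM at 24 h, against 1526 and 2316 CPM at 48 h. WT at 48 h was by far the highest, and the log2 difference was -0.93 (SE 0.20, edgeR adjusted p = 0.0123). With GC and length offsets it was -0.67 and missed the threshold (edgeR adjusted p = 0.0858). The 3 that did not pass were HYOU1, a nucleotide exchange factor for BiP (log2 -0.45, SE 0.19), SDF2L1, a partner of ERdj3 (-0.48, SE 0.17), and UGGT1, the glucosyltransferase that senses misfolded glycoproteins (-0.34, SE 0.16). The GC-rich HYOU1 (55.2% GC) and SDF2L1 (65.5% GC) passed with the offsets, at -0.96 (edgeR adjusted p = 0.0113) and -1.65 (edgeR adjusted p = 0.000347).

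Of the stress factors MANF, CRELD2 and WFS1, MANF fell. MANF, a secreted ER protein that is raised by stress, had 105 and 116 CPM at 24 h (ΔOGT-ISS and WT), against 329 and 284 CPM at 48 h. The times were far apart in both lines, with a fold of 0.362 (log2 -1.47, SE 0.17, edgeR adjusted p = 0.00124). CRELD2, another secreted UPR product, had 29.01 and 41.0 CPM, against 59.8 and 41.9 CPM. The WT libraries lay close together and those of ΔOGT-ISS did not, and the test over both lines gave -0.54 (SE 0.25, edgeR adjusted p = 0.151). WFS1, the ER membrane protein wolframin, stood at -0.47 (SE 0.22, edgeR adjusted p = 0.165). With GC and length offsets CRELD2 passed at -0.89 (edgeR adjusted p = 0.0255) and WFS1 at -1.31 (edgeR adjusted p = 0.00726).

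Of the disulfide isomerases, which form and rearrange disulfide bonds, PDIA4 and PDIA6 fell. PDIA6 had 132 and 137 CPM at 24 h, against 228 and 209 CPM at 48 h (log2 -0.70, SE 0.16, edgeR adjusted p = 0.0152). PDIA4 had 331 and 386 CPM, against 572 and 576 CPM (log2 -0.68, SE 0.16, edgeR adjusted p = 0.0188). Neither overlapped between the times. With GC and length offsets PDIA6 stood at -0.57 (edgeR adjusted p = 0.0533) and PDIA4 at -1.03 (edgeR adjusted p = 0.00662). P4HB, the most studied isomerase, did not pass (log2 0.33, SE 0.19, edgeR adjusted p = 0.231). With the offsets P4HB changed sign (-0.39, edgeR adjusted p = 0.194).

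Of the 12 genes of ER-associated degradation 3 fell and 1 rose. HERPUD1 (ENSG00000051108, chromosome 16, 56932048 to 56944863), a stress-induced scaffold of the ubiquitin ligase complex around SYVN1, had 31.6 and 22.8 CPM at 24 h (ΔOGT-ISS and WT), against 138 and 65.9 CPM at 48 h. ΔOGT-ISS at 48 h was the highest by far, and both lines were low at 24 h (fold 0.280, log2 -1.84, SE 0.20, edgeR adjusted p = 0.00104). SELENOK, an ER selenoprotein that binds derlins, had 35.3 and 36.2 CPM, against 94.0 and 113 CPM (fold 0.347, log2 -1.53, SE 0.17, edgeR adjusted p = 0.00105). The times did not overlap for either gene. SEL1L, the adaptor of SYVN1, had 206 and 202 CPM, against 332 and 272 CPM (log2 -0.56, SE 0.16, edgeR adjusted p = 0.0386).

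DERL1, a derlin channel component, rose, with 126 and 126 CPM at 24 h, against 70.1 and 98.8 CPM at 48 h (log2 0.60, SE 0.18, edgeR adjusted p = 0.0437). It passed under 4 of 8 full alternatives, and missed the threshold with DESeq2 (0.56, adjusted p = 0.0586), with upper-quartile factors (0.52, edgeR adjusted p = 0.0628), without the line term (edgeR adjusted p = 0.101) and with limma (adjusted p = 0.102). SEL1L did not pass with GC and length offsets (-0.23, edgeR adjusted p = 0.436). The other 8 did not pass. SELENOS, which recruits the p97 ATPase, DERL2, and EDEM3, a mannosidase that marks clients, stood between -0.54 and -0.45, and the ER lectin ERLEC1 at -0.34. EDEM1, a lectin that hands over misfolded glycoproteins, was at -0.03, and the ligase gene SYVN1 and the lectin gene OS9 at 0.31 and 0.37. DERL3 rested on 55 and 30 counts at 24 h, against 4 and 8 counts at 48 h (log2 1.501, SE 0.88, edgeR adjusted p = 0.247).

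Of the 4 genes of translocation and signal peptide removal 1 rose. This was SEC61A1, the channel subunit, with 383 and 374 CPM at 24 h, against 265 and 263 CPM at 48 h (log2 0.52, SE 0.16, edgeR adjusted p = 0.0434). With GC and length offsets it stood at 0.10 (edgeR adjusted p = 0.756), with upper-quartile factors at 0.44 (edgeR adjusted p = 0.0679) and with libraries thinned to equal depth at 0.47 (edgeR adjusted p = 0.0537), and it passed under 3 of 8 full alternatives. SEC61B (-0.28), the signal peptidase subunit SPCS3 (-0.25) and the translocon-associated SSR1 (0.01) did not pass, with SEs of 0.17 to 0.19. Summed over the 4, the level was 1103 and 998 CPM at 24 h, against 930 and 1075 CPM at 48 h.

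Each line was also read alone, as a ratio of 1 library to 1 library with no test. In ΔOGT-ISS 18 members were over 1.5-fold lower at 24 h and 2 over 1.5-fold higher, against 24.4% and 28.3% of all tested genes and 1348 and 2093 of the 8658 with a mean of at least 10 CPM. In WT 12 were lower and 3 higher by that measure, against 23.9% and 33.3% of all and 1688 and 2251 of those 8658. The members' median log2 ratio was -0.54 in ΔOGT-ISS and -0.43 in WT, beside 0.02 and 0.09 for all genes. The sign was the same in both lines for 33 of 36 members (76.4% over all genes), and their log2 ratios correlated with r = 0.811 across the 36 genes, beside 0.650 over all tested genes, a description of 2 pairs of libraries without a shared library. XBP1 had 0.446 (95% counting interval 0.427 to 0.466) in ΔOGT-ISS and 0.678 (0.652 to 0.706) in WT. CRELD2 had 0.485 (0.438 to 0.538) and 0.979 (0.875 to 1.10). The difference between these ratios was not tested. The intervals are exact conditional binomial ones and cover counting error only.

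Of the 16 calls by time, 9 were kept under all 8 of the full alternatives, namely DESeq2, 2 other scalings, no low-count filter, no line term, limma on log2(FPKM + 1), thinning and the GC and length offsets. Those 9 were EIF2AK3, HSPA5, HSP90B1, DNAJB9, DNAJB11, DNAJC3, MANF, HERPUD1 and SELENOK. Of the others, CANX was kept in 7, PDIA4 in 6, XBP1 and PDIA6 in 5, SEL1L and DERL1 in 4 and SEC61A1 in 3. With a pseudocount of 0.1 in place of 1, limma called 0 of 36 members (10 at an unadjusted p under 0.05) and 0 genes in all. With 1 library left out, the line term could not be kept, 1 time had a single library, and the spread came from the 2 lines at the other time alone, which the single library was assumed to share. With the 48 h library of ΔOGT-ISS or WT left out, the members' median log2 difference was -0.44 and -0.35. With the 24 h library of ΔOGT-ISS or WT left out, it was -0.33 and -0.49. The medians of all tested genes in these 4 fits were 0.14, 0.08, -0.01 and -0.01. The 16 called members kept their sign in each of these 4 fits, which share libraries and are no independent repeats. For each of the 16 both 24 h levels lay on the same side of both 48 h levels. The kept signs therefore follow from those levels and add no support.

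The 8 members with an ERSE or ERSE-II all had negative log2 differences by time, and 5 of them fell (HSPA5, HSP90B1, CANX, PDIA6 and HERPUD1). Of the 26 others whose promoters were searched, 20 had negative differences, 9 fell and 1 rose. DNAJB9, MANF and SELENOK, among the members with the lowest folds of 24 h over 48 h, had no exact match to any of the 4 motifs in the window searched. The difference between these groups of genes was not tested.

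Other genes of the secretory pathway and of the stress response were taken from lists, which were drawn up with earlier results of these data known. Of 12 measured PERK and ATF4 targets, 9 fell and 0 rose at 24 h (median log2 -0.83). ATF3, a stress-induced factor, stood at -3.996 (SE 0.45, edgeR adjusted p = 0.00113) and PPP1R15A, which restores translation, at -2.23 (SE 0.24). SESN2, a stress-induced regulator of growth signalling, stood at -2.08 (SE 0.44) and missed the threshold with DESeq2 (adjusted p = 0.0766) and limma on log2(FPKM + 1) (adjusted p = 0.0713). Of 23 other folding enzymes 7 fell and 5 rose (median -0.27). ERO1B, an oxidase that recharges the isomerases, fell (-2.27, SE 0.32), whereas the sulfhydryl oxidase gene QSOX1 (2.21, SE 0.18) and MOGS, a glucosidase of N-glycan trimming (1.41, SE 0.17), rose.

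Of 21 other translocation and signal peptidase genes 8 fell and 2 rose (median -0.50). SPCS2 and SEC11C, of the signal peptidase, stood at -1.68 and -1.09, and SEC63, a translocon partner, at -1.10. Of 22 other degradation genes 7 rose and 2 fell (median 0.21). The ligase gene RNF5 stood at 0.90, the p97 cofactor UBXN6 at 0.95 and NGLY1, which strips N-glycans, at -0.82. Among 24 ER to Golgi transport genes 3 fell and 1 rose (median -0.01). BET1 and the cargo receptor gene LMAN1 fell (-1.17 and -0.72), and SEC24C, a coat subunit, rose (1.14). Of 17 other sensors and processing enzymes 3 rose and 1 fell (median 0.11), and the 3 were BAX and BAK1, the mitochondrial pore proteins, and ATF6B, the second ATF6 gene (1.31, 1.151 and 1.20). With GC and length offsets MOGS, UBXN6, NGLY1, SEC11C, LMAN1, ATF6B and BAK1 did not pass, and UBXN6 changed sign (-0.20, edgeR adjusted p = 0.494).

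The second comparison asked whether the lines differed. Of the 36 members 0 passed the edgeR test between ΔOGT-ISS and WT, where 0.463% of all genes did, and 5 (13.9%) had an unadjusted p under 0.05, as did 9.08% of all tested genes and 13.9% of those with at least 10 CPM. DESeq2 and limma also called 0 (4 unadjusted with DESeq2, and 3 and 0 with limma at pseudocounts of 1 and 0.1). The median log2 difference was 0.00 to 2 decimals (-0.0027), with 17 positive and 19 negative, against 0.02 over all genes. Summed over the members, ΔOGT-ISS had 7503 CPM at 24 h and 12282 CPM at 48 h, against 7490.5 and 12231 CPM in WT. A p that misses the threshold does not show that the lines are alike, and with 1 residual degree of freedom the SE of the members' log2 differences ran from 0.15 to 0.25, save for DERL3 at 0.84.

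HERPUD1 had the lowest p of the list, with a log2 difference of 0.77 (SE 0.19, unadjusted p = 0.00417, edgeR adjusted p = 0.179). Its 24 h levels, 31.6 CPM (ΔOGT-ISS) and 22.8 CPM (WT), gave a ratio of 1.39 with a counting interval of 1.25 to 1.54. Its 48 h levels, 138 CPM (ΔOGT-ISS) and 65.9 CPM (WT), gave 2.10 with an interval of 1.92 to 2.29, so that ΔOGT-ISS was higher at both times. Without the low-count filter it passed (0.73, edgeR adjusted p = 0.0418), while over the other 8 full alternatives, both limma fits included, the lowest adjusted p was 0.0928. With 1 library left out and no time term, its value ran from -0.49 to 1.82.

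WFS1, SELENOS, XBP1 and CREB3L2 were the other 4, each with lower values in ΔOGT-ISS. WFS1 levels in ΔOGT-ISS were 17.8 CPM (24 h) and 19.6 CPM (48 h), against 24.0 and 41.4 CPM in WT (log2 -0.75, SE 0.22, edgeR adjusted p = 0.292). SELENOS levels in ΔOGT-ISS were 37.6 CPM (24 h) and 62.1 CPM (48 h), against 64.6 and 83.1 CPM in WT (log2 -0.60, SE 0.17, edgeR adjusted p = 0.256). Both genes had lower values in ΔOGT-ISS at each time. SELENOS lies on chromosome 15 at 101270817 to 101277500, where the 35 other tested genes within 5 Mb had a median of -0.35, and relative to them it stood at -0.25.

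XBP1 was lowest in ΔOGT-ISS at 24 h (149 CPM, against 257 CPM in WT), which gave a ratio of 0.581 with a counting interval of 0.559 to 0.604. At 48 h the levels were 335 CPM (ΔOGT-ISS) and 379 CPM (WT), and the ratio was 0.884 with an interval of 0.845 to 0.924. The edgeR test gave -0.48 (SE 0.19, adjusted p = 0.480) over both times, and the 98 other tested genes within 5 Mb had a median of -0.00306. CREB3L2 stood at -0.45 (SE 0.19, edgeR adjusted p = 0.544) and its 64 neighbours at -0.26. CANX stood at -0.33, with ratios of 0.955 at 24 h (interval 0.939 to 0.972) and 0.659 at 48 h (interval 0.646 to 0.672), and its 86 neighbours on chromosome 5 had a median of -0.44. HSPA5 had ratios of 1.21 and 1.27, with intervals of 1.19 to 1.23 and 1.25 to 1.30, and a log2 difference of 0.31 (SE 0.17, edgeR adjusted p = 0.701). The sensors ERN1 (-0.43, SE 0.24), EIF2AK3 (0.20, SE 0.15) and ATF6 (0.06, SE 0.15) did not pass either.

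**Figure D2:**
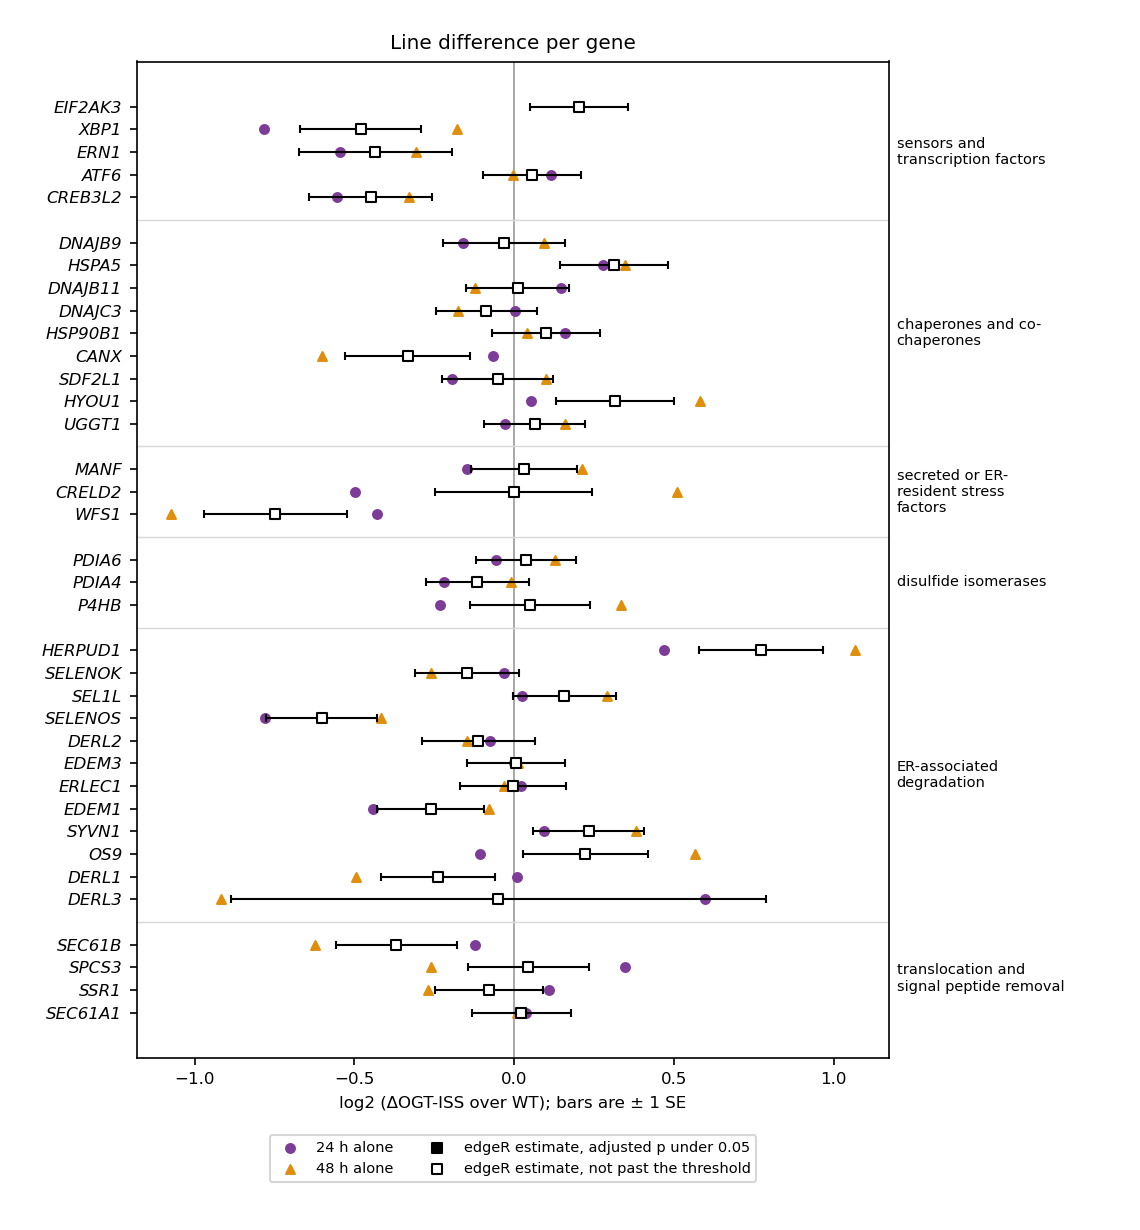
Log2 difference of each member in ΔOGT-ISS over WT, as edgeR estimates over both times (squares with ± 1 SE, all open because no adjusted p was under 0.05) and as single-library ratios at 24 h (purple dots) and 48 h (orange triangles). HERPUD1 lies farthest right at 0.77 and WFS1 farthest left at -0.75.

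At single times, 1 library per line was compared with no test. At 24 h 1 was higher in ΔOGT-ISS (DERL3, on 55 and 30 counts) and 2 lower (XBP1 and SELENOS), against 8.27% and 12.5% of all tested genes and 3.06% and 5.83% of those with a mean of at least 10 CPM. At 48 h 1 was higher (HERPUD1) and 4 lower (CANX, WFS1, SEC61B and DERL3), against 21.9% and 16.3% of all and 7.58% and 9.07% of those with at least 10 CPM. The members' shares were 2.78% and 5.56% at 24 h, and 2.78% and 11.1% at 48 h. The line ratios at the 2 times had the same sign for 19 of 36 members (56.6% over all genes), and across the 36 genes they correlated with r = 0.197, beside 0.192 over all tested genes. HYOU1, OS9 and CRELD2 had ratios near 1.5 at 48 h (1.496, 1.48 and 1.43) and of 1.04, 0.928 and 0.707 at 24 h.

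None of the 6 other lists had a member past the edgeR test by line. Of their 119 tested genes 22 (18.5%) had an unadjusted edgeR p under 0.05. The shares were 9.08% over all tested genes and 13.9% over those with a mean of at least 10 CPM. Of the 22 genes, 7 were among the 12 tested PERK and ATF4 targets. The PERK and ATF4 targets had a median of 0.70 and 11 of 12 positive values, the exception being CEBPB at -1.29, which was named after its value was seen. The list includes ATF4 itself. Of the positive values, ASNS (0.52, SE 1.10) had at most 17 counts in any library. VLDLR (2.55, SE 0.92) had 1 count in WT at 48 h, and ATF3 had 25 and 17 counts at 24 h (ΔOGT-ISS and WT). At 24 h 7 of the 12 were positive (median 0.23) and the list summed to 866 CPM (ΔOGT-ISS) and 985 CPM (WT). At 48 h 11 were positive (median 1.12), 9 of them over 1.5-fold, and the sums were 1924 and 1209 CPM. No test was made of how the times differ. The 2 of lowest p were DDIT4 at 0.67 (SE 0.16, edgeR adjusted p = 0.154, DESeq2 adjusted p = 0.0328) and ATF4 at 0.81 (SE 0.21, edgeR adjusted p = 0.179, DESeq2 adjusted p = 0.0144). The remaining 5 lists had medians between -0.14 and 0.11. Their lowest p-values were those of DNAJC1 and PPIB (-0.89 and -0.49), EDEM2 and RHBDD1 (0.87 and 0.41), SEC61G and SEC11A (-0.90 and -0.57), LMAN2 and SEC16A (-0.55 and -0.39), and MAP3K5 and EIF2AK2 (-0.59 and 1.04). Without the low-count filter DNAJC1, EDEM2, SEC61G, ATF4 and EIF2AK2 passed.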

How the data were processed

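CORALL V2 libraries were prepared after RiboCop depletion of ribosomal RNA, per the labels' protocols. The submitters' processing notes name HISAT2 2.2.0, SAMtools 1.15.1, featureCounts 2.0.1 and build hg38, without roles or options. Raw counts per gene were deposited by the authors without normalization. The deposited FPKM values equal the count over a transcript length in the table and the library's counts summed over the rows of that table, a sum 0.0519% to 0.0675% below the total count. The sources used here give neither the strand setting nor the handling of multi-mapping reads, so reads of overlapping, antisense or near-identical genes cannot be told apart. Members, gene lists and tests were chosen with earlier results of these data known.

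Counts were tested with edgeR 4.0.16 (R 4.3.3; TMM factors, filterByExpr with a minimum count of 10, quasi-likelihood F test, Benjamini-Hochberg adjustment over 17492 genes, threshold 0.05) in an additive model of line and IL-2 time over 4 libraries, with 1 residual degree of freedom. Each line had 1 library at each time, so the residual is how far the time difference departs between the lines. The test moderates it across genes, and SEs and p-values do not measure a spread between replicates. Nothing in the labels says that libraries came from separate cultures, so the spread behind each p-value may also be technical. CPM used TMM factors, SE is the log2 difference over the square root of F, and single-library log2 ratios used a prior count of 2. A count of 0 allows up to 3 counts, or 0.103 to 0.284 CPM by library, for counting error only. Alternatives were DESeq2 1.42.0, limma 3.58.1 on log2(FPKM + 1) and log2(FPKM + 0.1), other scalings and filters, thinning, offsets for GC content and length (known for 16751 tested genes and all 36 members), a subtraction of neighbouring genes and libraries left out. All members are accounted for. Of each other list, up to 3 called genes with the largest change were named per comparison, or the 2 of lowest p where none was called. Gene positions are from GENCODE release 29 (GRCh38), and promoters from RefSeq.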

Additional observations from a re-analysis of the deposited data

Results flagged for a closer look

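For 7 members the ratio of ΔOGT-ISS to WT lay above 1 at one time and below 1 at the other, with counting intervals on opposite sides of 1. These are 19.4% of the members, beside 9.51% of all tested genes and 14.8% of those with a mean of at least 10 CPM. Each ratio rests on 1 library per line, and no test was made of how the times differ. DNAJB11 had ratios of 1.11 at 24 h and 0.918 at 48 h, SSR1 1.08 and 0.830, and SPCS3 1.27 and 0.835. The other 4 ran the opposite way, with ratios of 0.902 at 24 h and 1.16 at 48 h for MANF, 0.707 and 1.43 for CRELD2, 0.851 and 1.26 for P4HB, and 0.928 and 1.48 for OS9. Likewise the ratio of 24 h to 48 h was 0.864 in ΔOGT-ISS and 1.11 in WT for EDEM1, and 1.149 and 0.884 for SSR1, which was not tested either. These 2 genes are 5.56% of the members, beside 4.71% of all tested genes and 5.91% of those with at least 10 CPM.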

How the results depend on the processing

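By IL-2 time 16 members passed, and the number was 10 with limma on log2(FPKM + 1), 0 with limma on log2(FPKM + 0.1) and 6 to 11 with 1 library left out. The members' median log2 difference by time, -0.47, was -0.56 with upper-quartile factors and -0.26 without the low-count filter, where the median of all genes was 0.23, and -0.49 to -0.33 with 1 library left out. By line 1 member passed without the low-count filter and 0 otherwise, and the members' median near 0 was 0.0234 with upper-quartile factors, 0.0433 with library size alone, -0.0474 without the filter, 0.0422 and 0.0443 in the limma fits, -0.0270 with GC and length offsets and -0.38 to 0.13 with 1 library left out. Over all genes the calls by line were 81, against 303 with DESeq2, 546 without the filter and 188 with the offsets. They were 0 without the time term and 0 in both limma fits (1570 and 1092 at an unadjusted p under 0.05). By time the calls over all genes were 4535 of 17492, against 3867 with DESeq2, 4897 of 43630 without the filter and 2394 of 16751 with the offsets. With the offsets 11 of the 16 member calls by time were kept, 5 were lost and 4 were gained. UBXN6 by time, 0.95, was -0.20 with the offsets. Among the members 5 changed the sign of their time difference with the offsets (ATF6, P4HB, SYVN1, EDEM1 and SPCS3), none of them called. After subtraction of neighbours within 5 Mb, 8 of 36 members changed the sign of their line difference. The cause of these shifts was not tested. The time term pairs the libraries of each time, and the labels give no replicate numbers for any further pairing. Depth limits DERL3, with 4 to 55 counts.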
